A study of Mus musculus with 16 samples.

Results

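The comparison set the tibialis anterior (TA) muscle of 4 Adult-HFD mice against that of 4 Juvenile-HFD mice, which are 8 of the 16 libraries of the series and were chosen by their labelled age and diet. All mice were wild-type (WT) males of the C57BL/6JGpt strain. Juvenile-HFD mice started a high-fat diet (HFD) at 3 weeks of age and were sampled at 7 weeks, and Adult-HFD mice started it at 8 weeks and were sampled at 12 weeks, so that each had eaten the diet for 4 weeks. The age at which the diet began and the age at sampling differ together and cannot be told apart. The other 8 libraries, 4 Juvenile-NCD and 4 Adult-NCD, came from wild-type males of the same strain and ages on a normal chow diet (NCD) for 4 weeks, and they serve as the background for the age difference. Polyadenylated RNA was sequenced, and the deposited values are raw counts per gene.

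Between 14428377 and 14978599 reads were counted on genes in the Juvenile-HFD mice and between 14060709 and 14574700 in the Adult-HFD mice. The share of counts on mitochondrially encoded genes was 13.1% ± 1.93 (SD, n = 4) for Juvenile-HFD and 15.3% ± 3.24 for Adult-HFD (exact two-sided permutation test, p = 0.286), and it ranged from 1.04% to 13.1% among the Adult-NCD mice. Levels are given as CPM, the count of a gene relative to the TMM-scaled size of its library, with all 16 mice on 1 scale, and values of single mice are listed in the order of replicates 1 to 4. A gene was called when its adjusted p was under 0.05 in the quasi-likelihood test of edgeR, with Benjamini-Hochberg adjustment across every gene tested, and log2 fold changes are Adult-HFD over Juvenile-HFD with their standard error (SE).

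After weaning, the limb muscles of a mouse go on growing, largely because existing fibres lengthen and take up nuclei and protein. Fetal forms of contractile proteins give way to adult forms during development, and the proliferation of muscle and connective tissue cells declines as growth slows. Fibroblasts between the fibres make most of the collagen that surrounds them.

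Genes of the extracellular matrix, the fetal actin gene Actc1 and the growth factor gene Igf1 were lower in the adults on HFD. Stat5b, the calcium release channel gene Ryr1 and Acadm, a gene of fatty acid oxidation, were higher. Of 14043 genes tested, 1085 were called higher in Adult-HFD mice (7.73%) and 1455 lower (10.4%). Without Juvenile-HFD replicate 2, the juvenile with the highest mean over the collagen list, 622 were called higher and 864 lower. The called genes that were higher had a median log2 fold change of 0.46, with 86 above 1, and those that were lower had a median of -0.95, with 689 beyond -1. An unadjusted p under 0.05 was reached by 4501 genes (32.1%). With the thresholds of the study, which ask in addition for a log2 change beyond 0.5 in either direction, 649 genes were higher (4.62%) and 1653 lower (11.8%), so that 28.2% of them were higher, beside 42.7% by adjusted p.

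The first principal component of the 8 libraries held 54.7% of the variance and placed the Juvenile-HFD mice between -49.4 and -21.5 and the Adult-HFD mice between 4.45 and 56.8. The groups did not overlap on this component, and replicate 2 was the mouse furthest to the juvenile side in both groups. Over genes, which are not independent replicates, Pearson's r of log2 CPM between pairs of mice was 0.979 to 0.986 within the juvenile group, 0.967 to 0.984 within the adult group and 0.925 to 0.980 between them. The levels of the 4 juveniles and the 4 adults did not overlap for 3163 of the genes tested (22.5%), among them 1008 genes called higher (7.18% of all tested) and 1239 called lower (8.82%). Genes named for the 10 smallest p in each direction were picked from those without overlap. For them, groups that lie apart are therefore no further support.

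**Figure D1:**
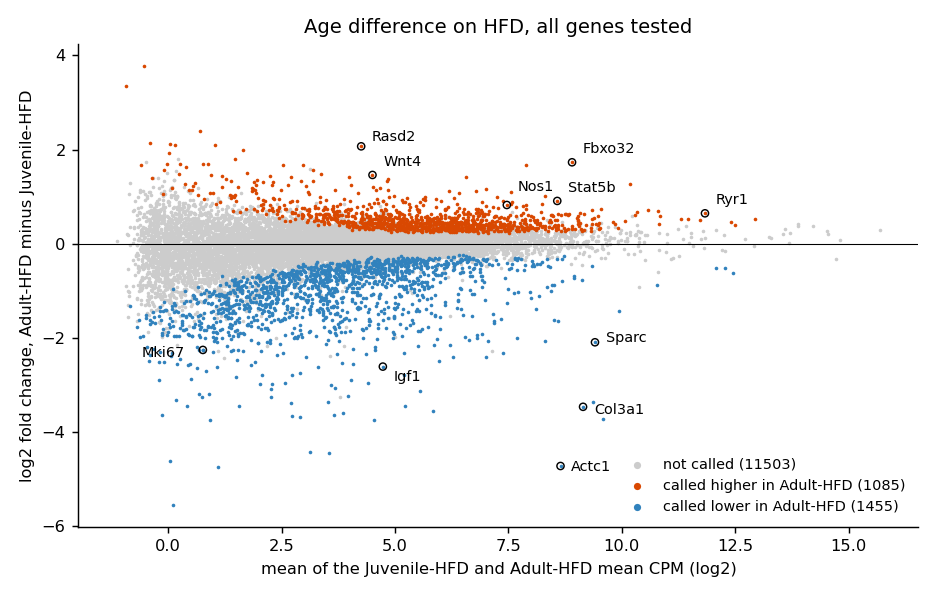
Log2 fold change of Adult-HFD minus Juvenile-HFD (vertical axis) against the log2 of the mean CPM of both groups (horizontal axis); each point is 1 of 14043 genes, coloured by call, with named genes circled. Genes called lower reach further from 0 than those called higher, with Actc1 at -4.72 and Rasd2 at 2.07.

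Actc1 (ENSMUSG00000068614.7) encodes cardiac alpha-actin, which skeletal muscle makes during development. It lies on chromosome 2 of GRCm38 from base 114047282 to 114053548, on the minus strand. Its CPM was 594, 413, 899 and 1189 in the Juvenile-HFD mice and 28.8, 30.2, 28.4 and 30.6 in the Adult-HFD mice. The juveniles were all far above the adults and differed widely among themselves, while the adults were nearly alike. The log2 fold change was -4.72 ± 0.29 (quasi-likelihood test of edgeR with Benjamini-Hochberg adjustment, adjusted p = 1.29e-05), with lower values in 4 of 4 adults. Actin genes are close in coding sequence, so reads shared between them add uncertainty to the level. Among 6 tested developmental isoforms Actc1 was the 1 called, beside 10.4% of all genes, and the list had a median log2 fold change of -0.16 beside 0.00 over all genes tested, where 7096 were higher and 6947 lower. Myh3 and Myh8, the embryonic and perinatal myosin heavy chains, Myl4, Tnnt2 and Ncam1 were not called, and the median was -0.03 without Juvenile-HFD replicate 1, -0.25 without Juvenile-HFD replicate 4 and -0.02 without Adult-HFD replicate 4.

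The promoter of Actc1 is shown because this gene had the smallest p among genes lower in adults. The RefSeq sequence (GRCm38.p6, minus strand, chr2:114052826-114053125) covers 300 bases around the start of the gene as RefSeq places it, which lies inside the span above, and is printed 5′ to 3′ with its match to the CArG box, a motif bound by serum response factor, in capitals.
Actc1: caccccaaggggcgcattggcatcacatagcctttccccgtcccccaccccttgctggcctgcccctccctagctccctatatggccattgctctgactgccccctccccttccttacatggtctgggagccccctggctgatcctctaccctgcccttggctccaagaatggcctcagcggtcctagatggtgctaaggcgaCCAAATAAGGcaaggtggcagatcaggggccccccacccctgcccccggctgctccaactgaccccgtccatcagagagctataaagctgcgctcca
The CArG box, searched on both strands, was held by 307 of 20534 promoters of that length (1.495%) and by 21 of the 1076 promoters found for genes called lower (1.95%). A match describes letters in this window, and binding was not tested.

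Nearly all collagens fell. Of 24 collagen genes tested, 23 were called lower, beside 10.4% of all genes tested. Col19a1 was not called, and the median log2 fold change was -2.23. Col4a1, a chain of the network collagen of basement membranes, had 483, 572, 479 and 644 CPM in the juveniles and 137, 244, 183 and 149 CPM in the adults. Col6a2, a chain of the microfibrillar collagen of muscle, had 153, 266, 175 and 268 CPM against 28.8, 66.7, 41.2 and 26.0 CPM, and Col6a3, another chain of it, had 131, 233, 143 and 212 CPM against 30.5, 66.5, 45.4 and 37.8 CPM. For each of these 3 genes the juveniles were all above the adults, and Adult-HFD replicate 2 was the highest adult. The log2 fold changes were -1.62 ± 0.17 for Col4a1 and -2.41 ± 0.28 for Col6a2, and Col6a3 was called lower too (quasi-likelihood test of edgeR with Benjamini-Hochberg adjustment, adjusted p = 0.000522, 0.000935 and 0.000957), each lower in 4 of 4 adults. The chains of fibrillar collagen Col1a1, Col1a2 and Col3a1 had log2 fold changes of -3.73, -3.36 and -3.46. With any 1 mouse left out, 20 to 23 collagens were called lower, and the median lay between -2.61 and -1.96.

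Other matrix proteins were called lower in 36 of 45 cases, with a median of -1.49, and Lama5 and Ccn1 were called higher. Over all genes tested, 10.4% were called lower and 7.73% higher. With any 1 of Juvenile-HFD replicates 1, 3 and 4 and Adult-HFD replicates 1 and 3 left out, or with all 16 mice in 1 fit, 1 gene of the list was called higher. Sparc, a collagen-binding glycoprotein, had 887, 1450.3, 909.9 and 1156 CPM in the juveniles and 193, 398, 241 and 207 CPM in the adults. Even the highest adult was well below the lowest juvenile, and the log2 fold change was -2.09 ± 0.23 (quasi-likelihood test of edgeR with Benjamini-Hochberg adjustment, adjusted p = 0.000551), lower in 4 of 4 adults. Eln, which encodes elastin, had 67.8, 74.7, 68.6 and 92.7 CPM against 32.2, 40.7, 35.0 and 29.6 CPM, and Mfap5, a component of microfibrils, had 35.6, 54.2, 30.2 and 34.4 CPM against 8.75, 12.6, 8.20 and 4.49 CPM. Neither gene had overlapping groups, and the log2 fold changes were -1.15 ± 0.13 and -2.19 ± 0.26. Adamtsl2, a secreted glycoprotein of microfibrils, had 7.73, 8.39, 7.83 and 10.7 CPM in the juveniles and 0.921, 1.35, 0.720 and 1.06 CPM in the adults. The adults were uniformly low, at -3.09 ± 0.23 (quasi-likelihood test of edgeR with Benjamini-Hochberg adjustment, adjusted p = 5.70e-05; lower in 4 of 4 adults).

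Genes for the folding, crosslinking and cleavage of collagen were called lower in 24 of 28 cases, with a median of -1.27, and Colgalt1 was called higher. Of all genes tested, 10.4% were called lower and 7.73% higher. Serpinh1, the collagen chaperone of the endoplasmic reticulum, had 141, 189.8, 132 and 158 CPM in the juveniles and 48.6, 61.8, 59.8 and 45.3 CPM in the adults. Loxl2, which crosslinks collagen by oxidising lysines, had 24.9, 36.0, 22.9 and 27.1 CPM against 4.14, 8.30, 6.26 and 5.02 CPM. Both genes separated the groups without overlap, with log2 fold changes of -1.54 ± 0.13 and -2.23 ± 0.21 (quasi-likelihood test of edgeR with Benjamini-Hochberg adjustment, adjusted p = 0.000275 and 0.000451), each lower in 4 of 4 adults. Exons of Loxl2 overlap another gene over 5.70% of their bases. Bmp1, the protease that removes the C-terminal propeptide of procollagen, was at -1.29 ± 0.17, and the metalloprotease Adamts12 at -1.58 ± 0.16.

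**Figure D2:**
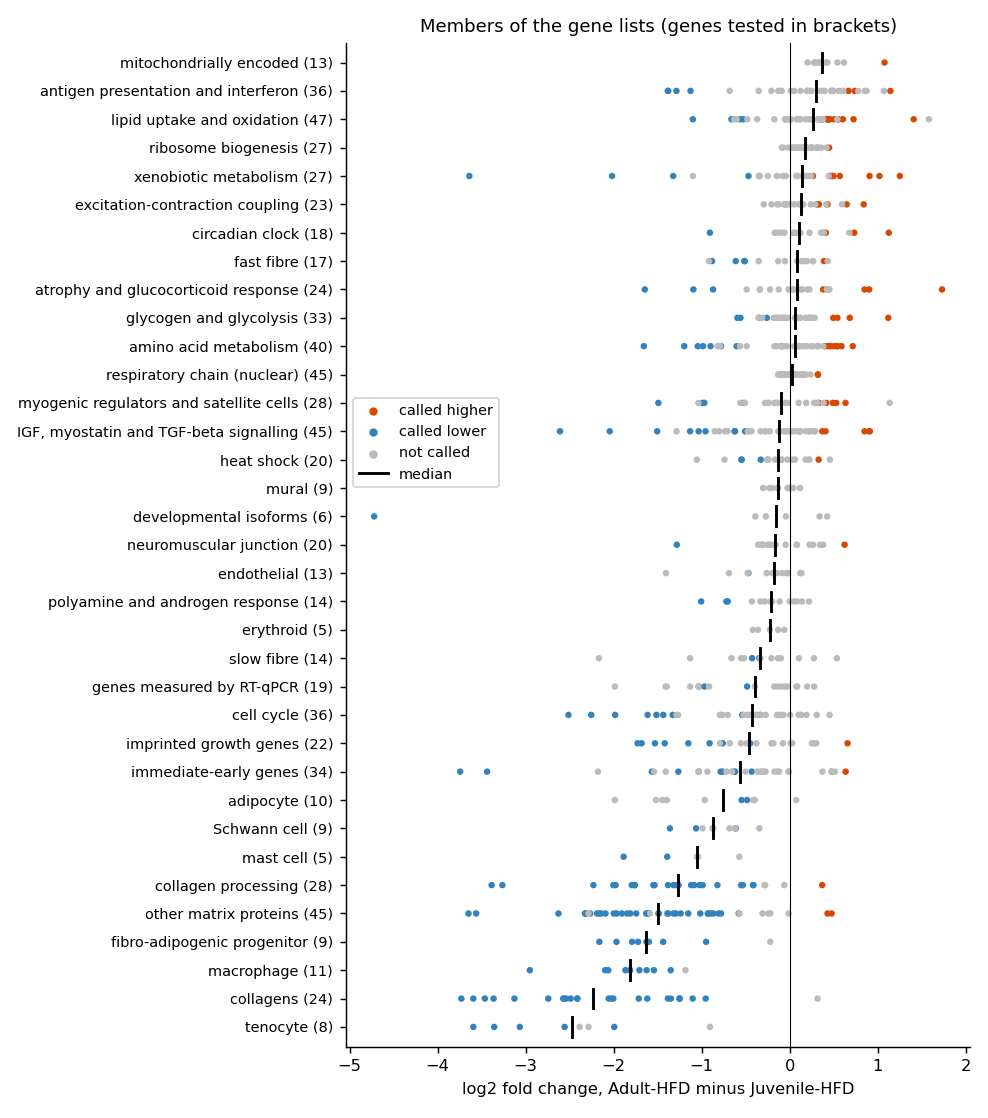
Log2 fold change of Adult-HFD minus Juvenile-HFD (horizontal axis) for each tested member of the gene lists with 5 or more tested members (vertical axis, ordered by the median); points are genes, coloured by call, and black ticks are medians. The tenocyte, collagen and macrophage lists have the lowest medians, at -2.47, -2.23 and -1.81.

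The matrix genes moved with markers of several other cells, and in bulk tissue fewer cells of a type and less RNA per cell cannot be told apart. Markers of fibro-adipogenic progenitors, the fibroblast-like cells between fibres, were called lower in 8 of 9 cases, beside 10.4% of all genes tested. Their median was -1.63, Ly6a was not called, and Lum is also in the matrix list. Their summed CPM was 1551, 2659.6, 1563 and 1974 in the juveniles and 537, 1304, 735 and 433 in the adults, of which Gsn, an actin-severing protein, held 72.7%. All juveniles exceeded all adults, and replicate 2 was the highest mouse in both groups. Gsn itself lost its call without any 1 of Juvenile-HFD replicate 2 and Adult-HFD replicate 1 (quasi-likelihood test of edgeR with Benjamini-Hochberg adjustment, adjusted p up to 0.0588). Pi16, a marker of adventitial fibroblasts, had 37.7, 62.1, 34.8 and 39.6 CPM against 9.90, 18.9, 13.5 and 8.29 CPM. Its groups were well apart, at -1.79 ± 0.25 (quasi-likelihood test of edgeR with Benjamini-Hochberg adjustment, adjusted p = 0.00145; lower in 4 of 4 adults). No marker of the list was at 0 in all 8 mice, and the part of these cells in the matrix result was not tested.

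Tendon markers were called lower in 5 of 8 cases, namely Tnmd, Mkx, Col11a1, Chad and Thbs4, beside 10.4% of all genes tested. The median was -2.47, and Col11a1 and Fmod are also in the matrix lists. With no filter on low counts and with all 16 mice in 1 fit, 8 of 8 were called lower. Their summed CPM was 477, 1193, 452 and 522 in the juveniles and 63.1, 318, 177 and 21.9 in the adults, of which Thbs4, a matricellular glycoprotein, held 51.1%. Juvenile-HFD replicate 2 stood far above the other juveniles, and all juveniles were above the adults. Thbs4 lost its call without any 1 of Juvenile-HFD replicate 2 and Adult-HFD replicate 1 (quasi-likelihood test of edgeR with Benjamini-Hochberg adjustment, adjusted p up to 0.0675). Tnmd, a membrane protein of tenocytes, had 20.4, 37.6, 15.5 and 18.1 CPM against 0.690, 7.02, 2.59 and 0.532 CPM, at -3.07 ± 0.56 (quasi-likelihood test of edgeR with Benjamini-Hochberg adjustment, adjusted p = 0.00445; lower in 4 of 4 adults). Markers of bone and cartilage were highest in Juvenile-HFD replicates 2 and 3, with summed CPM of 2.53, 70.3, 32.6 and 4.75 in the juveniles and 0, 5.39, 0.144 and 0.608 in the adults, of which Ibsp, a sialoprotein of bone, held 80.0%. The 2 members tested, Col2a1 and Ibsp, were called lower at -4.62 ± 0.73 and -4.45 ± 1.31, and Ibsp lost its call with DESeq2 and without any 1 of Juvenile-HFD replicates 2 and 3 and Adult-HFD replicates 1, 3 and 4 (quasi-likelihood test of edgeR with Benjamini-Hochberg adjustment, adjusted p up to 0.124). Its log2 fold change was -3.30 without Juvenile-HFD replicate 2; without Adult-HFD replicate 2 the other 3 adults were at 0 for Ibsp, and the fitted value of -11.3 is then no bound. With no filter on low counts, 4 of 5 bone and cartilage genes were called lower. The part of tendon, fascia or bone in the matrix result was not tested.

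Macrophage markers were called lower in 10 of 11 cases, beside 10.4% of all genes tested, with a median of -1.81, and Mpeg1 was not called. Summed over all 13 markers, CPM was 228, 362, 197 and 262 in the juveniles and 47.3, 136, 98.4 and 39.3 in the adults, of which Lyz2, which encodes lysozyme, held 34.5%. No adult reached the lowest juvenile. Lyve1, a hyaluronan receptor of resident macrophages and lymphatic vessels, had 8.02, 16.9, 6.85 and 10.6 CPM against 0.997, 2.41, 1.94 and 0.0760 CPM, at -2.95 ± 0.50 (quasi-likelihood test of edgeR with Benjamini-Hochberg adjustment, adjusted p = 0.00302; lower in 4 of 4 adults). Among 5 mast cell genes, with a median of -1.05, the proteases Cpa3 and Mcpt4 were called lower, beside 10.4% of all genes tested. They were at -1.89 ± 0.41 and -1.39 ± 0.40. Mcpt4 lost its call without any 1 of Juvenile-HFD replicates 2, 3 and 4 and Adult-HFD replicates 1, 3 and 4 (quasi-likelihood test of edgeR with Benjamini-Hochberg adjustment, adjusted p up to 0.0871). Summed CPM of the mast cell list was 16.2, 24.8, 20.2 and 29.9 in the juveniles and 5.29, 15.7, 16.6 and 5.02 in the adults, with Kit the most abundant at 25.2%, and that of the B and plasma cell list was 75.2, 37.3, 48.5 and 56.2 and 13.04, 30.6, 24.3 and 8.06. Ighm, the heavy chain of immunoglobulin M, held 86.3% of the latter and was called lower at -1.55 ± 0.35; without Juvenile-HFD replicate 1, which was the highest mouse, 1 gene of that list was called higher. With no filter on low counts, 4 of 5 mast cell genes and 3 of 9 B and plasma cell genes were called lower. Markers of T and NK cells and of neutrophils were too low to be tested, with summed CPM of 2.18 ± 0.985 and 3.17 ± 5.00 in the juveniles (SD, n = 4) and 0.671 ± 0.451 and 2.22 ± 1.55 in the adults, and Cd3e and S100a9 were their most abundant genes, at 33.2% and 51.8%. The part of immune cells in the result was not tested.

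Few vessel and blood genes were called. Summed CPM of 13 endothelial markers was 1562, 1432, 1535 and 1701 in the juveniles and 1263, 1433, 1526 and 1427 in the adults, with Flt1, a receptor of vascular growth factor, holding 21%. The groups overlapped, and Emcn, a sialomucin of capillaries, was the 1 endothelial marker called, beside 10.4% of all genes tested called lower, at -0.47 ± 0.11, though not with all 16 mice in 1 fit. Without Adult-HFD replicate 2, 4 endothelial markers were called lower, and without Adult-HFD replicate 3, 3 were; DESeq2 called 3 of the 13 lower, and with no filter on low counts 4 were. The 9 markers of mural cells, the pericytes and smooth muscle around vessels, were not called, with summed CPM of 1818 ± 109 in the juveniles (SD, n = 4) and 1675 ± 108 in the adults, of which Rgs5 held 42.5%, and 1 was called lower without Juvenile-HFD replicate 1. The 5 red cell genes tested were not called, at 177 ± 76.5 and 155 ± 68.9 CPM for the list, of which the globin gene Hbb-bs held 49.3%. Among keratinocyte genes Krt5 and Krt14 were at 0 counts in all 8 mice, and Krt10, which held 98.8% of a summed CPM of 1.59 ± 0.275 and 1.58 ± 0.566, was not called. The part of these cells in the result was not tested.

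Schwann cell genes had a median of -0.87, and 4 of 9 were called lower, beside 10.4% of all genes tested. Among the 4 were Pmp22, Mbp and Prx, which encode myelin proteins. Without Juvenile-HFD replicate 2, 2 were called. Summed CPM of the list was 415, 555, 286 and 311 in the juveniles and 264, 173, 198 and 133 in the adults, and the juveniles were all above the adults. The part of nerve in the samples was not tested.

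The adipocyte calls changed with the mice included and with the fit. Their summed CPM was 517, 612, 431 and 512 in the juveniles and 272, 432, 275 and 381 in the adults, of which the fatty acid carrier Fabp4 held 79.2%. Fabp4 and Thrsp, a regulator of fatty acid synthesis, were called lower among 10 genes tested, beside 10.4% of all genes tested. They were at -0.48 ± 0.13 and -0.55 ± 0.11. Lep, the gene for leptin, had 2.89, 6.33, 0.979 and 1.07 CPM in the juveniles and 0.230, 11.1, 0.504 and 0.0760 CPM in the adults. Adult-HFD replicate 2 had the highest leptin level of the 8 mice, whereas the other adults were below every juvenile. Adult-HFD replicate 2 was likewise far above the other adults for Adipoq, the gene for adiponectin (1.69, 12.2, 1.37 and 0.456 CPM in the adults), and Cfd, the gene for adipsin (3.07, 38.3, 6.76 and 3.19 CPM). Without it, 8 of the 10 genes were called lower and the median of the list went from -0.76 to -2.56; without any 1 of Juvenile-HFD replicates 1, 2 and 4 and Adult-HFD replicates 1 and 3, 1 gene was called. With the replicate block 7 of 10 were called lower, and with no filter on low counts 6 of 11 were. Fabp4 lost its call without any 1 of Juvenile-HFD replicates 1, 2 and 4 and Adult-HFD replicates 1 and 3 (quasi-likelihood test of edgeR with Benjamini-Hochberg adjustment, adjusted p up to 0.0683). The part of fat tissue in the samples was not tested.

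**Figure D3:**
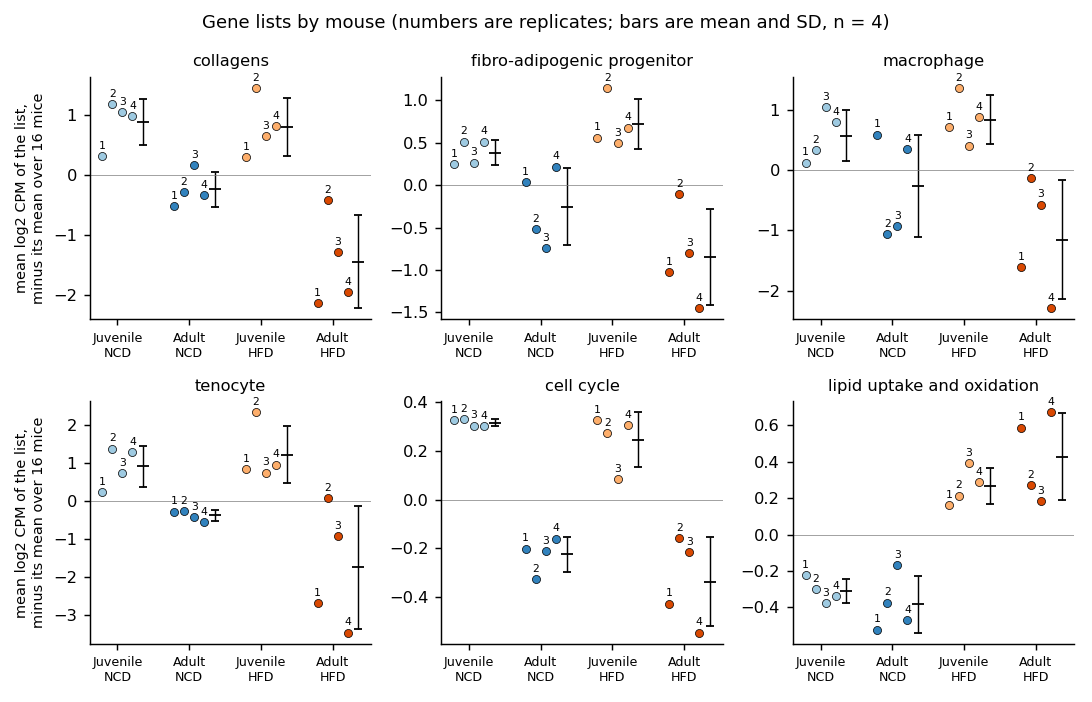
Mean log2 CPM of 6 gene lists in each of the 16 mice, minus the mean of the list over all mice (vertical axes), by group (horizontal axes); points are mice with their replicate number, and bars are the mean and SD of 4 mice. The collagen means of the Adult-HFD mice lie between -2.13 and -0.41 and those of the Juvenile-HFD mice between 0.30 and 1.45, with replicate 2 highest in both groups.

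Igf1 was lower and Stat5b higher in the adults. Igf1 (ENSMUSG00000020053.18) encodes insulin-like growth factor 1, which drives fibre growth, and lies on chromosome 10 of GRCm38 from base 87858265 to 87937042, on the plus strand. Its CPM was 53.7, 56.2, 32.7 and 40.2 in the juveniles and 4.68, 12.2, 7.84 and 5.25 in the adults. The highest adult, replicate 2, was still far below the lowest juvenile. The log2 fold change was -2.61 ± 0.27 (quasi-likelihood test of edgeR with Benjamini-Hochberg adjustment, adjusted p = 0.000475), with lower values in 4 of 4 adults. Stat5b, a transcription factor that carries the growth hormone signal, had 275, 251, 279.9 and 252 CPM in the juveniles and 452, 498, 489 and 561 CPM in the adults. Both groups were tight and well apart, at 0.91 ± 0.09 (quasi-likelihood test of edgeR with Benjamini-Hochberg adjustment, adjusted p = 0.000475; higher in 4 of 4 adults). Fstl1, a secreted glycoprotein related to follistatin, was at -2.05 ± 0.24, and Igfbp7, a secreted binding protein, at -0.96 ± 0.16. Over 45 genes of IGF, myostatin and TGF-beta signalling, with a median of -0.12, 9 were called lower, and Stat5b, Acvr2b, Akt2, Mtor and Eif4ebp1 were called higher. The 5 of 45 called higher stand beside 7.73% of all genes tested and the 9 called lower beside 10.4%. Without any 1 of Juvenile-HFD replicates 1, 2 and 4, 3 were called higher, without Juvenile-HFD replicate 2 or Adult-HFD replicate 1, 6 were called lower, and without Adult-HFD replicate 2, 14 were called lower. A fit with no filter on low counts called 15 of 46 lower, and the median was 0.01 without Juvenile-HFD replicate 1, -0.25 without Juvenile-HFD replicate 3 and -0.06 without any 1 of Juvenile-HFD replicate 2 and Adult-HFD replicates 1 and 2.

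Imprinted growth genes were called lower in 8 of 22 cases, beside 10.4% of all genes, with a median of -0.47, and 7 to 11 were called lower with any 1 mouse left out. Rian, a noncoding RNA transcribed from the maternal chromosome, had 25.2, 21.8, 15.9 and 19.8 CPM in the juveniles and 6.75, 7.52, 7.77 and 6.69 CPM in the adults. Meg3, a noncoding RNA of the same cluster, had 22.5, 30.4, 25.6 and 34.3 CPM against 12.0, 10.6, 12.1 and 16.3 CPM. The groups were clearly apart for both, at -1.53 ± 0.15 and -1.15 ± 0.16 (quasi-likelihood test of edgeR with Benjamini-Hochberg adjustment, adjusted p = 0.000475 and 0.00148; lower in 4 of 4 adults). Exons of Meg3 and Rian overlap other genes over 8.29% and 3.42% of their bases. Grb10, an adaptor that restrains insulin receptor signalling, was at -0.76 ± 0.10. The other members called lower were Plagl1, Ndn, H19, Dlk1 and Cdkn1c, and Kcnq1ot1 was called higher at 0.66. With any 1 of the 4 juveniles or Adult-HFD replicates 1 and 4 left out Kcnq1ot1 was not called, and without Adult-HFD replicate 2, 2 members were called higher. With DESeq2 size factors in edgeR or the replicate block, no member was called higher.

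Of 57 cell cycle genes, 36 were tested and 9 called lower, beside 10.4% of all genes. They were Ccnd1, Mki67, Cenpa, Top2a, E2f1, Uhrf1, Kif23, Ccnd2 and Pcna, and 5 were called without Adult-HFD replicate 1. The median was -0.43, and it lay further from 0 with DESeq2 and with no filter on low counts, as given under the processing. Top2a, Uhrf1 and Kif23 had adult means of 0.27, 0.37 and 0.37 CPM, which rest on few reads. Mki67, the Ki-67 protein of dividing cells, had 3.32, 2.63, 2.45 and 2.88 CPM in the juveniles and 0.384, 1.21, 0.504 and 0.228 CPM in the adults. Cenpa, the histone variant of centromeres, had 3.32, 3.38, 3.71 and 4.75 CPM against 1.92, 1.42, 1.73 and 0.988 CPM. These levels were low in every mouse, and both genes were lower in 4 of 4 adults, without overlap. The log2 fold changes were -2.26 ± 0.40 for Mki67 and -1.33 ± 0.26 for Cenpa (quasi-likelihood test of edgeR with Benjamini-Hochberg adjustment, adjusted p = 0.00384 and 0.00600). Ccnd1, which encodes cyclin D1, was at -1.98 ± 0.28, but 23.4% of its exon bases overlap another gene, and the strand used in counting is not stated.

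Promoters of Mki67 and Cenpa are shown as examples of cell cycle genes that fell and hold CCAAT, the box bound by nuclear factor Y. Matches on either strand are in capitals, and the RefSeq sequences (GRCm38.p6) run 5′ to 3′. The Mki67 promoter lies on the minus strand at chr7:135716330-135716629 and has 3 matches, and the Cenpa promoter on the plus strand at chr5:30666636-30666935 and has 2.
Mki67: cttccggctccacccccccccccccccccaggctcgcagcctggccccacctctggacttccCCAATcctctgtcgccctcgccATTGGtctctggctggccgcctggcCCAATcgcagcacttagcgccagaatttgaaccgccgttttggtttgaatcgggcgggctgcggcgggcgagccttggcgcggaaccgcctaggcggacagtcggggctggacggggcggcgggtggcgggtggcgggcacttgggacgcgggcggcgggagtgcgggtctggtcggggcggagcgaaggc
Cenpa: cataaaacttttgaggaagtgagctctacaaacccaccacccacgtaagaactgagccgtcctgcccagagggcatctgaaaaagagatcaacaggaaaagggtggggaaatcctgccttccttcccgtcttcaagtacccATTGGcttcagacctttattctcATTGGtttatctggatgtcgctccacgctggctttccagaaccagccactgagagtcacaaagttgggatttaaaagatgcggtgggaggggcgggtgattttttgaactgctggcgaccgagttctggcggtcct
CCAAT was held by 6 of the 7 promoters found for called cell cycle genes (85.7%), all but that of E2f1, beside 7854 of 20534 promoters of the same length (38.2%) and 384 of 1076 promoters of genes called lower (35.7%). Among called collagens it was held by 7 of 18 (38.9%). The last motif searched, CAGCTG, an E-box bound by myogenic factors, was in 15.6% of all promoters and in 18.96% of those of genes called lower. The motifs and the genes shown were chosen after the values were seen, these 3 motifs were the only ones searched, and a match describes letters only.

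Rasd2 (ENSMUSG00000034472.13), a small GTPase of the Ras family, had the smallest p among genes higher in adults and lies on chromosome 8 of GRCm38 from base 75213944 to 75224113, on the plus strand. Its CPM was 6.43, 6.83, 9.02 and 6.96 in the juveniles and 27.7, 29.9, 34.8 and 31.2 in the adults. All adults were far above all juveniles, at 2.07 ± 0.13 (quasi-likelihood test of edgeR with Benjamini-Hochberg adjustment, adjusted p = 1.29e-05; higher in 4 of 4 adults). Wnt4, a secreted Wnt ligand, had 12.8, 11.3, 14.1 and 9.91 CPM against 34.8, 25.0, 37.3 and 36.3 CPM, at 1.46 ± 0.15. Nos1, the neuronal nitric oxide synthase held at the fibre membrane, had 132, 119.8, 142 and 115 CPM against 243, 220.0, 233 and 210.4 CPM, at 0.82 ± 0.09. For both genes the lowest adult was above the highest juvenile, which the rule that named them required. The others of the 10 with the smallest p were Dglucy, a D-glutamate cyclase (0.95), Tbc1d16, an activator of Rab GTPases (0.89), Asb10, a protein with a SOCS box (0.74), Ces1d, a carboxylesterase (1.02), Uri1, a prefoldin-like protein (0.82), Cacng1 and Stat5b. Exons of Dglucy, Tbc1d16 and Nos1 overlap other genes over 8.13%, 6.38% and 2.40% of their bases, so their counts carry that uncertainty. Among genes that fell, the 10 with the smallest p also held Ucp2, a carrier of the inner mitochondrial membrane, at -1.20 ± 0.13.

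**Figure D4:**
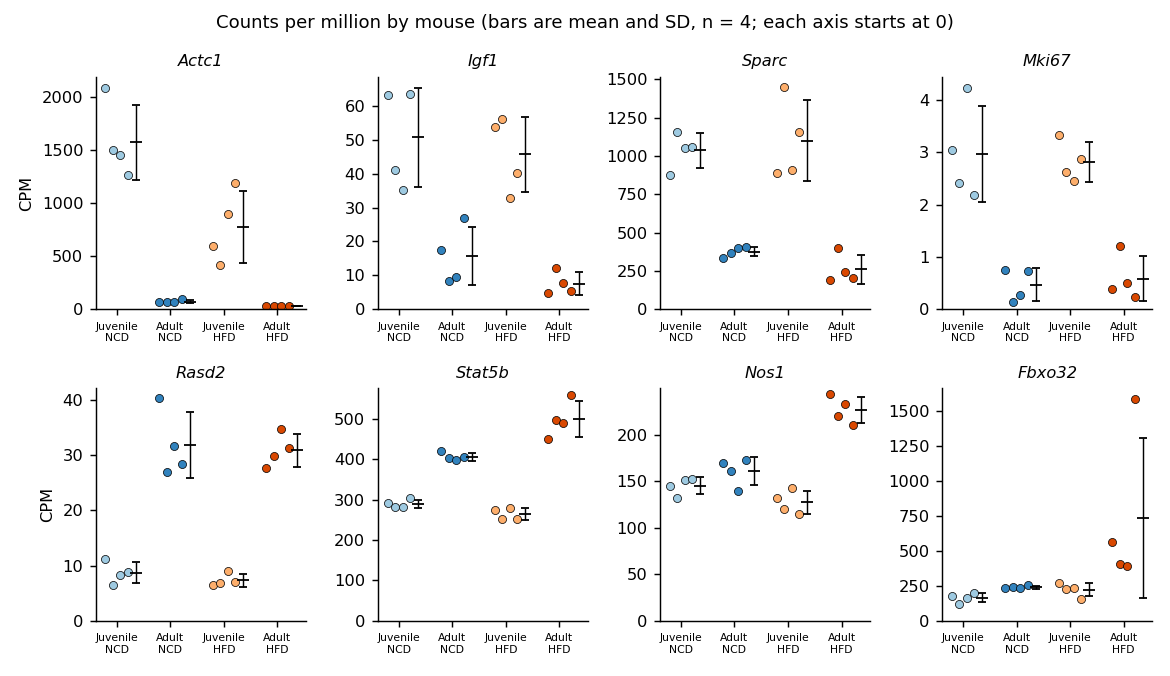
CPM of 8 genes in each of the 16 mice (vertical axes, starting at 0) by group (horizontal axes); points are mice in replicate order, and bars are the mean and SD of 4 mice. Actc1, Igf1, Sparc and Mki67 are lower and Rasd2, Stat5b and Nos1 higher in all Adult-HFD than in all Juvenile-HFD mice, and Fbxo32 reaches 1591 CPM in Adult-HFD replicate 4.

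Markers of fast and of slow fibres were both present in the labelled muscle. Fast fibre genes summed to 119159 ± 9368 CPM in the juveniles (SD, n = 4) and 122636 ± 7678 CPM in the adults, and slow fibre genes to 522 ± 77.9 and 446 ± 174 CPM, of which the ankyrin repeat protein Ankrd2 held 23.98%. Myh4, the myosin heavy chain of the fastest fibres, held 23.7% of the fast sum and was not called, at 0.08 ± 0.15. Myl1, a light chain of fast myosin, had 7379, 6113, 6671 and 6896 CPM in the juveniles and 4461, 4534, 4932 and 3869.9 CPM in the adults. The groups did not overlap, at -0.61 ± 0.11 (quasi-likelihood test of edgeR with Benjamini-Hochberg adjustment, adjusted p = 0.00360; lower in 4 of 4 adults). Mylpf, another fast light chain, was at -0.51 ± 0.12, and Casq1, the calcium store protein of fast fibres, at -0.88 ± 0.19, with 8.00% of its exon bases inside another gene. In all, 4 of 17 fast fibre genes were called lower, beside 10.4% of all genes, the last being Pvalb, with a median of 0.08; Actn3 was called higher, but not without any 1 of Juvenile-HFD replicates 2, 3 and 4 and Adult-HFD replicates 1, 3 and 4, and DESeq2 called 3 fast fibre genes higher; the median ran from -0.02 (without Adult-HFD replicate 3) to 0.16 (without Adult-HFD replicate 2). Of 14 slow fibre genes, with a median of -0.34 (-0.60 without Adult-HFD replicate 1), Atp2a2, the calcium pump of slow fibres, and Tpm3, a slow tropomyosin, were called lower at -0.43 ± 0.11 and -0.35 ± 0.10, beside 10.4% of all genes tested. Atp2a2 lost its call without Adult-HFD replicate 3 and Tpm3 without any 1 of Juvenile-HFD replicates 1 and 2 and Adult-HFD replicates 2 and 3 (quasi-likelihood test of edgeR with Benjamini-Hochberg adjustment, adjusted p up to 0.0600 and 0.0825), neither was called with all 16 mice in 1 fit, and without Adult-HFD replicate 1, 4 of the list were called. With no filter on low counts, 6 of the 14 were called lower, and with all 16 mice in 1 fit 1 was.

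Genes that couple excitation to contraction were called higher in 5 of 23 cases, namely Cacng1, Ryr1, Cacng6, Cacna1s and Scn4a, beside 7.73% of all genes tested, with a median of 0.12. Without Juvenile-HFD replicate 2 there were 2, without Adult-HFD replicate 3 there were 3, and without Adult-HFD replicate 2, 1 gene was called lower; the median was 0.07 without Juvenile-HFD replicate 2 and 0.20 without Adult-HFD replicate 4. Cacng1, the gamma subunit of the voltage sensor, had 135, 124, 143 and 134 CPM in the juveniles and 217, 224, 272 and 253 CPM in the adults. Ryr1, the calcium release channel, had 2958, 2699, 2919 and 2771 CPM against 4013, 3986, 5073 and 4802 CPM. Both genes were higher in every adult than in every juvenile, by 0.84 ± 0.09 and 0.65 ± 0.11 on the log2 scale (quasi-likelihood test of edgeR with Benjamini-Hochberg adjustment, adjusted p = 0.000547 and 0.00282; higher in 4 of 4 adults). Cacng6, another gamma subunit, lost its call without Juvenile-HFD replicate 2 (quasi-likelihood test of edgeR with Benjamini-Hochberg adjustment, adjusted p = 0.0511). Among 20 genes of the neuromuscular junction, with a median of -0.17 (-0.11 without Adult-HFD replicate 4), Rapsn, which clusters acetylcholine receptors, was called higher at 0.62 ± 0.10 and Runx1, a transcription factor induced by denervation, lower at -1.28 ± 0.35, beside 7.73% of all genes tested called higher and 10.4% lower. Runx1 lost its call without any 1 of Juvenile-HFD replicate 2 and Adult-HFD replicates 1, 3 and 4 (quasi-likelihood test of edgeR with Benjamini-Hochberg adjustment, adjusted p up to 0.0801), and without Adult-HFD replicate 2, 2 genes were called lower.

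The satellite cell factor Pax7 and the myogenic regulatory factors were not called, while 9 of 28 genes of the wider list were, beside 18.1% of all genes tested. Pax7 had 5.27, 6.08, 6.99 and 7.77 CPM in the juveniles and 5.83, 6.31, 6.55 and 7.15 CPM in the adults. Myod1, which commits cells to the muscle lineage, had 29.7, 31.5, 47.7 and 54.8 CPM against 27.5, 49.4, 41.1 and 31.8 CPM, and Myog, the factor of differentiating myoblasts, had 3.68, 4.70, 3.78 and 2.81 CPM against 3.15, 3.69, 3.17 and 3.35 CPM. The groups overlapped for all 3, with log2 fold changes of -0.03 ± 0.17, -0.14 ± 0.22 and -0.18 ± 0.21. Myf5 and Myf6, the other factors of this family, were at -0.05 ± 0.23 and 0.28 ± 0.11 and were not called. Of 28 members of the list, with a median of -0.09, Cdh15, Itga7, Mef2a, Mef2d and Tead4 were called higher, and Skil, Megf10, Eya4 and Calcr lower. Cdh15, the cadherin of satellite cells, and Itga7, a laminin receptor, were at 0.53 ± 0.10 and 0.49 ± 0.09, each higher in 4 of 4 adults. Calcr was at -1.49 ± 0.35 and Megf10 at -0.99 ± 0.20, with juvenile means of 2.03 and 5.08 CPM. Without any 1 of Juvenile-HFD replicate 1 and Adult-HFD replicates 3 and 4, 3 members were called higher, and without Adult-HFD replicate 2, 8 were. Lower calls numbered 8 of 30 with no filter on low counts, and the median was 0.03 without Juvenile-HFD replicate 4 and -0.04 without Adult-HFD replicate 1. On NCD Myog and Myf6 were called lower in adults, at -1.60 and -0.53, while Pax7, Myod1 and Myf5 were not called. The interaction of age and diet was not called for Myog or Myf6, at 1.43 and 0.81 (quasi-likelihood test of edgeR with Benjamini-Hochberg adjustment, adjusted p = 0.148 and 0.109).

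The study chose 19 genes for RT-qPCR in TA muscle, among them Gapdh, its reference gene, and whether the same mice were sequenced is not given in the sources used here. As a list chosen by the study, it is not independent evidence of a direction. In the counts Skil, Nr4a1 and Fabp4 were called lower, with a median of -0.40 over the 19 genes, and Gapdh was not called, at -0.09 ± 0.09. Over all genes tested, 10.4% were called lower. Skil, a co-repressor of SMAD signalling, had 59.1, 52.4, 39.9 and 47.7 CPM in the juveniles and 26.8, 26.1, 30.0 and 19.4 CPM in the adults. The groups did not overlap, at -0.97 ± 0.14 (quasi-likelihood test of edgeR with Benjamini-Hochberg adjustment, adjusted p = 0.00185; lower in 4 of 4 adults). Of the other myosin heavy chains, Myh2 was at -0.92 ± 0.31, Myh7 at -1.13 ± 0.48 and Myh1 at 0.20 ± 0.14, none called. With 1 mouse left out, Myh7 ran from -1.43 to -0.285 and Myh1 from 0.0833 to 0.277. Reads shared between these similar genes add uncertainty. Without Adult-HFD replicate 2, 6 of the 19 were called lower and 1 higher, with no filter on low counts 9 were called lower, and with the replicate block 5 were. Fabp4 lost its call without any 1 of Juvenile-HFD replicates 1, 2 and 4 and Adult-HFD replicates 1 and 3 (quasi-likelihood test of edgeR with Benjamini-Hochberg adjustment, adjusted p up to 0.0683). Polyamine and androgen response genes were called lower in 3 of 14 cases, beside 10.4% of all genes, with a median of -0.21, among them Sat1 and Smox, which break polyamines down, at -0.70 ± 0.11 and -1.01 ± 0.22, and with no filter on low counts 5 were called lower.

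Genes of fatty acid uptake and oxidation were called higher in 15 of 47 cases and lower in 4, beside 7.73% and 10.4% of all genes tested, with a median of 0.26. Without Juvenile-HFD replicate 2, 4 were called higher, without Juvenile-HFD replicate 1 or Adult-HFD replicate 1 there were 8, and without Adult-HFD replicate 4 there were 9. Higher calls numbered 23 with no filter on low counts. Acadm, the medium-chain acyl-CoA dehydrogenase, had 328, 323, 396 and 375 CPM in the juveniles and 651, 493, 448 and 585 CPM in the adults. Acadl, the long-chain form, had 397, 378, 444 and 462 CPM against 752, 526, 518 and 679 CPM. The adults were all above the juveniles, with replicates 1 and 4 highest, at 0.60 ± 0.12 and 0.55 ± 0.13 (quasi-likelihood test of edgeR with Benjamini-Hochberg adjustment, adjusted p = 0.00692 and 0.0126; higher in 4 of 4 adults). Cpt1a, Mgll, Ucp3 and Plin2 were called lower, at -0.66, -0.53, -1.10 and -0.57.

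Of 33 genes of glycogen and glycolysis, with a median of 0.06, Fbp2, Gbe1, Ppp1r3a and Gyg were called higher and Eno1, Pfkp, Pgk1 and Hk1 lower. That is 4 of 33 in each direction, beside 7.73% of all genes tested called higher and 10.4% lower, and the median ran from -0.03 (without Adult-HFD replicate 3) to 0.06 (without Adult-HFD replicate 4). Fbp2, the muscle fructose bisphosphatase, had 35.7, 45.9, 51.9 and 48.9 CPM in the juveniles and 118, 74.3, 91.2 and 116 CPM in the adults. The groups did not overlap, at 1.12 ± 0.15 (quasi-likelihood test of edgeR with Benjamini-Hochberg adjustment, adjusted p = 0.00145; higher in 4 of 4 adults). Gbe1, the glycogen branching enzyme, was at 0.68 ± 0.10, and Ppp1r3a, which targets a phosphatase to glycogen, at 0.54 ± 0.10. Eno1, an enolase, was at -0.56 ± 0.11 and stayed called with any 1 mouse left out. The phosphofructokinase gene Pfkp lost its call without any 1 of Juvenile-HFD replicates 1, 2 and 4 and Adult-HFD replicates 1 and 4, and the phosphoglycerate kinase gene Pgk1 without any 1 of Juvenile-HFD replicates 2, 3 and 4 and Adult-HFD replicates 1, 2, 3 and 4 (quasi-likelihood test of edgeR with Benjamini-Hochberg adjustment, adjusted p up to 0.0718 and 0.0837) or with no filter on low counts or the replicate block. DESeq2 called 7 of 34 genes of the list higher. The count called lower was 2 without Juvenile-HFD replicates 2 or 3 or Adult-HFD replicate 3 and 1 without Juvenile-HFD replicate 4 or Adult-HFD replicates 1 or 4.

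Amino acid genes were called higher in 8 of 40 cases and lower in 7, beside 7.73% and 10.4% of all genes tested, and in 5 and 4 cases without Juvenile-HFD replicate 2. The median of the list was 0.06, and it was 0.03 without Juvenile-HFD replicate 2 or Adult-HFD replicate 2 and 0.02 when Adult-HFD replicate 4 was left out. The list mean of log2 CPM, centred over all mice, went the other way. It was 0.05 ± 0.06 in the juveniles (SD, n = 4) and -0.04 ± 0.03 in the adults. The 3 amino acid genes given next are among those called higher and do not stand for the list. Bcat2 and Bckdhb, which break down branched-chain amino acids, had 44.6, 43.5, 51.1 and 48.2 and 22.6, 22.4, 20.0 and 18.1 CPM in the juveniles and 64.7, 67.5, 70.0 and 72.9 and 32.6, 28.7, 31.2 and 33.5 CPM in the adults. All adults were above all juveniles for both, at 0.54 ± 0.08 and 0.59 ± 0.10 (quasi-likelihood test of edgeR with Benjamini-Hochberg adjustment, adjusted p = 0.00210 and 0.00306; higher in 4 of 4 adults), and exons of Bcat2 overlap another gene over 15.9% of their bases. Oat, ornithine aminotransferase, was at 0.43 ± 0.08. Detoxification genes were called higher in 9 of 27 cases, and Cyp2e1, Cyp1b1, Cbr2, Adh1 and Fmo1 were called lower, beside 7.73% and 10.4% of all genes tested; 3 were called lower without any 1 of Juvenile-HFD replicates 3 and 4 and Adult-HFD replicates 1 and 4. Their median was 0.13, and it was 0.06 without Juvenile-HFD replicate 3 and 0.09 without Adult-HFD replicate 2. The list mean of log2 CPM, centred over all mice, went the other way, at 0.10 ± 0.10 in the juveniles (SD, n = 4) and 0.01 ± 0.14 in the adults. Of the genes called lower, Cyp2e1 was at -3.64 ± 0.69, Cyp1b1 at -2.02 ± 0.42, Cbr2 at -1.32 ± 0.30, Adh1 at -0.47 ± 0.15 and Fmo1 at -0.35 ± 0.11. Nqo1, a quinone reductase, had 10.6, 9.71, 10.3 and 8.10 CPM in the juveniles and 18.1, 21.4, 23.5 and 29.7 CPM in the adults, and Aldh1a1, a retinal dehydrogenase, had 125, 112, 124 and 104 CPM against 271, 199.6, 186 and 218 CPM. Both were higher in every adult, at 1.25 ± 0.16 and 0.91 ± 0.12 (quasi-likelihood test of edgeR with Benjamini-Hochberg adjustment, adjusted p = 0.00105 and 0.00107; higher in 4 of 4 adults).

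Nuclear genes of the respiratory chain had a median of 0.03 over 45 genes, beside 0.00 over all genes tested, with Ndufv1 and Cox6a2 called higher, at 0.32 ± 0.09 and 0.32 ± 0.10, beside 7.73% of all genes. The median was -0.02 without Juvenile-HFD replicate 2 or Adult-HFD replicate 1, and 0.06 without Juvenile-HFD replicates 1 or 3. Ndufv1, a subunit of complex I, lost its call without any 1 of Juvenile-HFD replicates 1 and 2 and Adult-HFD replicates 1, 2, 3 and 4, and Cox6a2, a muscle subunit of complex IV, without any 1 of Juvenile-HFD replicates 1, 2 and 4 and Adult-HFD replicates 1, 2, 3 and 4 (quasi-likelihood test of edgeR with Benjamini-Hochberg adjustment, adjusted p up to 0.0851 and 0.110), and neither was called with all 16 mice in 1 fit, nor Cox6a2 with the replicate block. All 13 mitochondrially encoded genes had positive log2 fold changes, with a median of 0.37, and mt-Nd3, a subunit of complex I, was the 1 of 13 called, beside 7.73% of all genes tested, at 1.08 ± 0.25. The median was 0.23 without Adult-HFD replicate 1. The levels of mt-Nd3 were 83.8, 39.2, 49.9 and 45.2 CPM in the juveniles and 167, 77.3, 102 and 117 CPM in the adults. Its juvenile mean of 54.5 CPM stands beside 47781 for mt-Co1, 22226 for mt-Cytb and 100 for mt-Co3, so few mitochondrial reads bear the call. How reads with several matches were counted is not stated, and their part in these levels was not tested. The groups overlapped, because Juvenile-HFD replicate 1 was above the lowest adult. Without Juvenile-HFD replicate 1, 2 of the 13 were called higher, and without Adult-HFD replicate 2, 3 were; DESeq2 and the replicate block gave 2 each, and no filter on low counts gave 5. Ribosome biogenesis genes had a median of 0.17, with 24 of 27 above 0, beside 7096 of 14043 for all genes. The median was 0.10 without Adult-HFD replicate 4. Nop14 was the 1 of 27 called, beside 7.73% of all genes tested, at 0.45 ± 0.12, a call lost without any 1 of Juvenile-HFD replicates 2 and 4 and Adult-HFD replicates 1 and 4 (quasi-likelihood test of edgeR with Benjamini-Hochberg adjustment, adjusted p up to 0.0761) and with the replicate block, and with no filter on low counts 2 of the list were called higher.

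Among 24 genes of atrophy and glucocorticoid response, with a median of 0.08 that lay between 0.01 without Juvenile-HFD replicate 4 and 0.19 without Juvenile-HFD replicate 1, Fbxo31, Fbxo32, Foxo4, Map1lc3b and Eif4ebp1 were called higher and Foxo1, Tsc22d3 and Mt1 lower, beside 7.73% of all genes tested called higher and 10.4% lower. Fbxo32, the ubiquitin ligase atrogin-1, had 266, 226, 233 and 158 CPM in the juveniles and 563, 403, 392 and 1591 CPM in the adults. All adults were above all juveniles, but Adult-HFD replicate 4 was far above the other adults. The log2 fold change was 1.73 ± 0.39 with all mice (quasi-likelihood test of edgeR with Benjamini-Hochberg adjustment, adjusted p = 0.0109; higher in 4 of 4 adults) and 1.03 without that mouse, still called. Foxo4, a transcription factor of the FoxO family, lost its call without any 1 of Juvenile-HFD replicates 2 and 4 and Adult-HFD replicate 1 (quasi-likelihood test of edgeR with Benjamini-Hochberg adjustment, adjusted p up to 0.0567). In the list, 2 genes were called higher without Juvenile-HFD replicates 2 or 4, 3 without any 1 of Juvenile-HFD replicates 1 and 3 and Adult-HFD replicate 1, and 5 were called lower without Juvenile-HFD replicate 4. With no filter on low counts, 8 of 25 were called higher and 5 lower.

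Immediate-early genes, whose transcription answers quickly to stimulation or handling, were called lower in 10 of 34 cases, beside 10.4% of all genes, with a median of -0.56. The list mean of log2 CPM, centred over all mice, was 0.39, 0.24, -0.47 and -0.47 in the juveniles. It lay between -0.73 and -0.45 in the adults, so the groups overlapped. Called genes with wide juvenile spread were Nr4a3 (43.0 ± 48.1 CPM, SD, n = 4), Fosb (5.45 ± 5.11) and Socs3 (11.6 ± 10.4). Dusp1, a phosphatase of MAP kinases, had 143, 133, 159.6 and 172 CPM in the juveniles and 82.5, 88.8, 108 and 81.6 CPM in the adults. Nr4a1, an orphan nuclear receptor, had 449, 384, 267 and 257 CPM against 172, 176, 181 and 138 CPM. Every adult was below every juvenile, at -0.76 ± 0.11 and -1.03 ± 0.17 (quasi-likelihood test of edgeR with Benjamini-Hochberg adjustment, adjusted p = 0.00181 and 0.00266; lower in 4 of 4 adults). Klf10 and Ccn1 were called higher, but 1 gene of the list was without any 1 of Juvenile-HFD replicates 2 and 3 and Adult-HFD replicates 1 and 3, and neither of the pair was without Juvenile-HFD replicates 1 or 4. With all 16 mice in 1 fit, 6 were called lower and 0 higher by the same edgeR test, and with no filter on low counts 19 and 4 were. Among 20 heat shock genes, with a median of -0.13 (-0.08 without Adult-HFD replicate 2), Hspa4l, Hsp90aa1 and Dnaja1, all chaperones or their partners, were called lower and Hsp90ab1 higher, beside 7.73% of all genes tested called higher and 10.4% lower. Hspa4l and Hsp90aa1 lost the call without Juvenile-HFD replicate 2 (quasi-likelihood test of edgeR with Benjamini-Hochberg adjustment, adjusted p = 0.0535 and 0.0579), Dnaja1 without any 1 of Juvenile-HFD replicates 1, 2 and 3 and Adult-HFD replicates 1, 2 and 4 (adjusted p up to 0.122) or with other size factors, the replicate block or mitochondrially encoded genes removed, and Hsp90ab1 was not called without Juvenile-HFD replicates 3 or 4. DESeq2 and the fit with no filter on low counts each called 5 heat shock genes lower and 2 higher.

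Of 18 clock genes tested, 3 were called higher, among them Nr1d1 and Cry2, and Nfil3 was called lower, beside 7.73% of all genes tested called higher and 10.4% lower. Nr1d1, the repressor REV-ERB alpha, had 87.7, 83.6, 87.4 and 80.9 CPM in the juveniles and 132, 158, 139 and 139 CPM in the adults. The groups did not overlap, at 0.73 ± 0.08 (quasi-likelihood test of edgeR with Benjamini-Hochberg adjustment, adjusted p = 0.000551; higher in 4 of 4 adults), but Nr1d1 was not called with all 16 mice in 1 fit, and 8.55% of its exon bases overlap another gene. The median of the list was 0.11, and it lay between 0.06 without Juvenile-HFD replicate 2 and 0.21 without Juvenile-HFD replicate 4. The hour of sampling is not given in the sources used here. Cry2, a repressor of the clock, lost its call without any 1 of Juvenile-HFD replicates 1, 2, 3 and 4 (quasi-likelihood test of edgeR with Benjamini-Hochberg adjustment, adjusted p up to 0.0915), and its log2 fold change of 0.41 was 0.25 without Adult-HFD replicate 4. Nfil3 was not called without any 1 of Juvenile-HFD replicates 1 and 2 and Adult-HFD replicates 2 and 4, and 5 clock genes were called higher without Adult-HFD replicate 4. Of 19 clock genes tested in each, DESeq2 called 5 higher and the fit with no filter on low counts 7.

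Of 36 genes of antigen presentation and interferon response, the class II genes H2-Aa, H2-Ab1, Cd74 and H2-Eb1 were called lower and Tap1, Nlrc5 and Gbp3 higher. These are 4 and 3 of 36, shares near the 10.4% and 7.73% of all genes tested. The median of the list was 0.30, but leaving out Adult-HFD replicate 1 gave 0.09, and leaving out Adult-HFD replicate 3 gave 0.46. The count called higher was 0 by the same edgeR test with all 16 mice in 1 fit, 5 with the replicate block and 12 with no filter on low counts, and DESeq2 called 2 lower. H2-Aa, the alpha chain of a class II molecule, had 52.9, 49.7, 35.0 and 47.7 CPM in the juveniles and 10.3, 35.0, 18.4 and 7.602 CPM in the adults, at -1.38 ± 0.36. The groups nearly met, since Adult-HFD replicate 2 was at almost the same level as Juvenile-HFD replicate 3. H2-Aa lost its call without any 1 of Juvenile-HFD replicate 2 and Adult-HFD replicate 1, and H2-Ab1 and Cd74, the beta chain and the invariant chain, each without any 1 of Juvenile-HFD replicates 1, 2 and 4 and Adult-HFD replicates 1, 3 and 4 (quasi-likelihood test of edgeR with Benjamini-Hochberg adjustment, adjusted p up to 0.0575 for H2-Aa, 0.0655 for H2-Ab1 and 0.0655 for Cd74), and Cd74 was not called by DESeq2. Without Juvenile-HFD replicates 2 or 3 or Adult-HFD replicate 4, 1 gene of the list was called higher, without Adult-HFD replicate 2, 6 were, and without Adult-HFD replicate 3, 5 were. No gene of the list was called higher without Adult-HFD replicate 1, none was called lower without that mouse or without Juvenile-HFD replicate 2, and 1 was called lower without any 1 of Juvenile-HFD replicates 1 and 4 and Adult-HFD replicates 3 and 4.

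The NCD mice, which share no library with the HFD mice, gave the age difference on the control diet. There 14243 genes were tested, of which 263 were called higher in adults (1.85%) and 570 lower (4.00%), together 5.85%, and 22.7% had an unadjusted p under 0.05. With the thresholds of the study, 657 were higher (4.61%) and 1084 lower (7.61%). Of the 1079 genes called higher on HFD and tested on NCD, 946 had the same sign (87.7%), and of the 1446 called lower, 1309 had (90.5%), beside 68.6% of the 13854 genes tested in both. Genes called higher on both diets numbered 150, which is 13.8% of the HFD list and 57.0% of the NCD list, and those called lower on both numbered 342, which is 23.5% and 60.0%. Genes called higher on HFD had a median of 0.46 there and 0.27 on NCD, and those called lower -0.95 and -0.43, where the first values come from the mice that chose the genes. E330009J07Rik, a gene known by its clone name, was the 1 gene called in opposite directions, at -0.71 on HFD and 0.83 on NCD, and its call on HFD was lost without any 1 of Juvenile-HFD replicates 3 and 4 and Adult-HFD replicates 1, 3 and 4 (quasi-likelihood test of edgeR with Benjamini-Hochberg adjustment, adjusted p up to 0.0959).

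Side by side, Actc1 was at -4.72 on HFD and -4.44 on NCD, Rasd2 at 2.07 and 1.88, and Igf1 at -2.61 and -1.71. The collagen list had medians of -2.23 and -1.07, with 23 and 15 of 24 genes called lower, and the macrophage list -1.81 and -0.81. The immediate-early list was at -0.56 on HFD and -1.40 on NCD. Medians of opposite sign included those of antigen presentation and interferon response, at 0.30 on HFD and -0.53 on NCD. They also included mitochondrially encoded genes, at 0.37 and -0.20, and mast cell genes, at -1.05 and 0.13. The mitochondrially encoded share of counts was 1.04% in Adult-NCD replicate 3 and 5.79% to 13.1% in the other Adult-NCD mice. The antigen presentation and interferon list was split among the Juvenile-NCD mice. Its mean log2 CPM, centred over all mice, was 0.91, 0.93, -0.24 and -0.31 in their replicates 1 to 4. In the Adult-NCD mice it lay between -0.53 and -0.09. The part of Juvenile-NCD replicates 1 and 2 in the values of this list was not tested. In the interaction 22 of 36 antigen presentation and interferon genes had an unadjusted p under 0.05, beside 11.3% of all genes. So did 0 of 13 mitochondrially encoded genes and 3 of 5 mast cell genes. The same held for 12 of 24 collagens, 23 of 46 other matrix genes, 5 of 13 macrophage markers and 15 of 34 immediate-early genes, and Jun was the 1 gene of these 7 lists that was called. Such pairs do not show a difference between the diets, which the interaction of age and diet tests directly. Over 14812 genes, the quasi-likelihood test of edgeR with Benjamini-Hochberg adjustment called 2 genes with a larger value on HFD (0.0135%), Per1 and Jun, and 0 with a smaller one. An unadjusted p under 0.05 was reached by 1669 of them (11.3%). With the thresholds of the study, 391 of the 14812 had a larger value (2.64%) and 803 a smaller one (5.42%). DESeq2, which tested 29688 genes, called 54 with a larger value and 39 with a smaller one. Per1, a clock gene that glucocorticoids induce, had 144, 117, 128 and 106 CPM in Juvenile-HFD and 125, 128, 135 and 124 CPM in Adult-HFD mice, beside 197, 236, 149 and 211 CPM in Juvenile-NCD and 98.2, 92.5, 83.1 and 99.3 CPM in Adult-NCD mice. Jun, a subunit of the AP-1 transcription factor, had 180.5, 156, 189 and 179.6 CPM in Juvenile-HFD and 152, 147, 193 and 209.8 CPM in Adult-HFD mice, beside 740.3, 520.3, 298 and 421 CPM in Juvenile-NCD and 135, 114, 144 and 172 CPM in Adult-NCD mice. On HFD the ages overlapped for both genes, whereas on NCD all juveniles were above all adults. The interaction was 1.14 ± 0.17 for Per1 and 1.80 ± 0.29 for Jun (quasi-likelihood test of edgeR with Benjamini-Hochberg adjustment, adjusted p = 0.0440 and 0.0451). Nos1, which rose on HFD, was at 0.15 on NCD, and its interaction of 0.68 ± 0.13 was not called (quasi-likelihood test of edgeR with Benjamini-Hochberg adjustment, adjusted p = 0.109). Ranked by p for larger and for smaller values on HFD separately, the other genes among the first 4 of either kind were Otud1, a deubiquitinase, at 2.71 ± 0.52, E330009J07Rik at -1.53 ± 0.28, Rab3il1, an exchange factor of Rab GTPases, at -1.18 ± 0.23, Foxc1, a forkhead transcription factor, at -1.41 ± 0.28, and Dgke, a diacylglycerol kinase, at -0.83 ± 0.17. None of these was called (quasi-likelihood test of edgeR with Benjamini-Hochberg adjustment, adjusted p = 0.109 for each but Dgke, at 0.130). On HFD alone Otud1 was called lower, but not without any 1 of Adult-HFD replicates 1 and 4, and Foxc1 was called lower, but not without Juvenile-HFD replicate 2 (quasi-likelihood test of edgeR with Benjamini-Hochberg adjustment, adjusted p up to 0.0700 and 0.0637). The value of Otud1 on HFD was -1.13 with all mice and -0.65 without Juvenile-HFD replicate 1.

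The interaction depended on the mice included. Without Adult-HFD replicate 2, 23 of 15066 genes were called with a larger value on HFD (0.153%) and 60 with a smaller one (0.398%). The 60 included the collagens Col3a1, Col5a2, Col15a1, Col1a2, Col6a6 and Col6a2, 6 of 24 tested, at a list median of -1.45, and the fibro-adipogenic progenitor markers Gsn, Pdgfra and Pi16. The members of the gene lists among the 23 were Per1, Jun, Myf6, a myogenic regulatory factor, Irs2, an adaptor of the insulin receptor, Plin4, a lipid droplet protein, and Isg15, a ubiquitin-like protein induced by interferon. Adult-HFD replicate 2 had the highest summed fibro-adipogenic progenitor, tenocyte, macrophage and adipocyte levels of the 4 adults. Counts were 10 and 1 without Juvenile-NCD replicate 3, 8 and 2 without Juvenile-HFD replicate 1, 3 and 0 without Adult-NCD replicate 4, 2 and 0 without Adult-NCD replicate 3, and 0 and 0 by the same edgeR test without any 1 of the other 11 mice. Per1 was called in 5 and Jun in 4 of these 16 fits with 1 mouse left out (quasi-likelihood test of edgeR with Benjamini-Hochberg adjustment, adjusted p up to 0.171 and 0.175), and neither was with the replicate block (adjusted p = 0.104 for both).

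**Figure D5:**
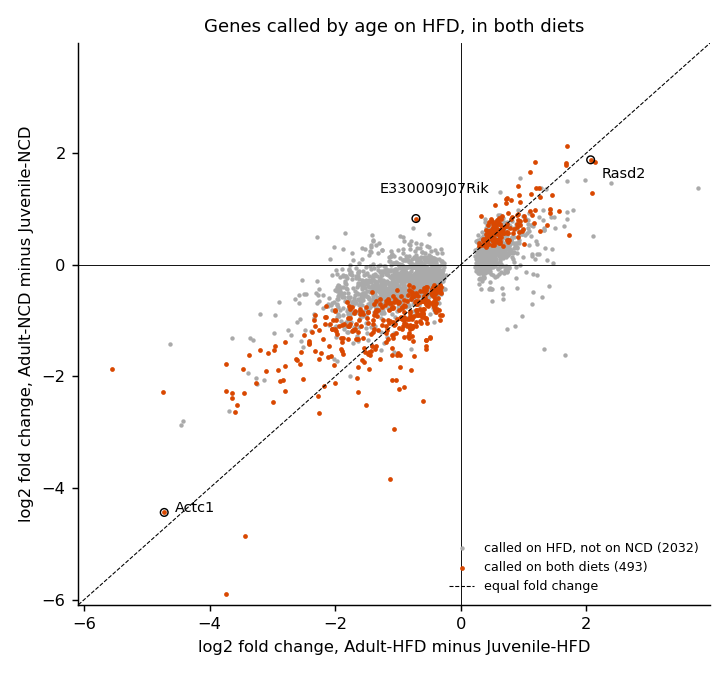
Log2 fold change by age on NCD (vertical axis) against that on HFD (horizontal axis) for genes called by age on HFD and tested on both diets; points are genes, orange where also called on NCD, and the dashed line marks equal values. Most points lie in the lower left and upper right of the plot, and E330009J07Rik is called in opposite directions.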

How the data were processed

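Raw counts per gene were made by the authors and deposited for 16 libraries of polyadenylated RNA, 1 per mouse: reads were checked with FastQC 0.12.1, trimmed with cutadapt, aligned to GRCm38 (mm10) with STAR 2.7.11a and counted with featureCounts 2.0.3. Their strand setting and treatment of reads with several matches are not given in the sources used here, so overlapping genes and close paralogs carry uncertainty. No other column of per-sample values was present. Of 55401 genes, 55141 were named by identifier from Gencode M21, 792 of them with another version of the identifier, and 260 had no name. The methods of the study name another Gencode version.

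The 8 HFD libraries were fitted with edgeR 4.0.16 in R 4.3.3 (filterByExpr with a minimum count of 10, TMM scaling, quasi-likelihood F test, Benjamini-Hochberg adjustment over all genes tested). The interaction of age and diet was fitted on all 16 mice. Log2 CPM used a prior count of 2. With totals between 14060709 and 14978599 counts, a gene at 1 CPM rests on few reads and its spread is wide. Nothing says that mice shared litters, so each mouse was 1 replicate. An exact test of 4 against 4 mice cannot go below p = 0.0286. Tables and figures used Python 3.11.15, pandas 2.3.3 and matplotlib 3.10.9. The fits were tested on simulated counts.

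Genes were named by rule: the 10 with the smallest p in each direction whose groups did not overlap; up to 3 called genes of each of 26 main lists, in the direction with more calls; 19 genes of the RT-qPCR list; 4 genes in each direction of the interaction; and for 14 lists of cell markers the most abundant and up to 2 called genes. This gave 130 genes, of which 128 were tested. Some genes that the rule selects are not reported here. Genes named outside this rule, and the motifs and promoters shown, were chosen after their values were seen. The members and lists were chosen with earlier results of these data known.

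The alternatives were DESeq2 1.42.0, DESeq2 size factors in edgeR, no filter on low counts, all 16 mice in 1 fit, mitochondrially encoded genes removed, the thresholds of the study, the replicate number as a block and each mouse left out in turn. Promoter sequences of 300 bases came from RefSeq (GRCm38.p6).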

Additional observations from a re-analysis of the deposited data

Results flagged for a closer look

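In 348 groups of 4 values, 22 (6.32%) had a mouse so far from the other 3 that its gap to the nearest, as a share of the whole range, passed Dixon's critical value, and chance does so in about 1 in 20 groups. The causes were not tested.

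In Juvenile-NCD replicate 1, 20140 genes were detected, against 20803 to 20905 in the other 3 mice (gap 0.867 of the range). As mean log2 CPM, centred over all mice, Juvenile-HFD replicate 1 was the highest juvenile for B and plasma cell genes, at 2.57 against -0.11 to 0.24 (0.869). Juvenile-HFD replicate 2 was the lowest for fast fibre genes, at -0.17 against 0.01 to 0.02 (0.952), and for nuclear genes of the respiratory chain, at -0.26 against -0.01 to 0.04 (0.856). It was the highest for tenocyte genes, at 2.33 against 0.75 to 0.96 (0.868), and for detoxification genes, at 0.25 against 0.04 to 0.07 (0.863). Juvenile-HFD replicate 3 was the lowest for antigen presentation, at -0.27 against 0.03 to 0.05 (0.918). Adult-HFD replicate 2 was the highest adult for bone and cartilage genes, at -0.24 against -3.41 to -3.09 (0.897), and Adult-HFD replicate 4 for ribosome biogenesis, at 0.28 against 0.01 to 0.03 (0.931).

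Among single genes, Adult-HFD replicate 4 was the highest adult for Fbxo31, at 569 CPM against 324 to 329 (0.979), for Fbxo32, at 1591 against 392 to 563 (0.857), and for Cry2, at 115 against 77.7 to 79.1 (0.963). Adult-HFD replicate 2 was the highest for Adipoq, at 12.2 CPM against 0.456 to 1.69 (0.895), Cfd, at 38.3 against 3.07 to 6.76 (0.895), Lep, at 11.1 against 0.0760 to 0.504 (0.961), and Ibsp, at 3.97 against 0 in the other 3 (gap 1). Adult-HFD replicate 1 was the highest for Cox6a2, at 608 CPM against 535 to 547 (0.833), and Adult-HFD replicate 3 for Otud1, at 40.9 against 27.1 to 28.3 (0.916). Juvenile-HFD replicate 2 was the lowest juvenile for Cacng6, at 107 CPM against 122 to 124 (0.870), and the highest for Thbs4, at 520.0 against 248 to 283 (0.872), and S100a9, at 4.64 against 0.210 to 0.650 (0.901). Juvenile-HFD replicate 4 was the highest for Kit, at 7.10 CPM against 4.07 to 4.55 (0.842).

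The age effect differed between the diets by the interaction test for Per1, by 1.14 on the log2 scale, and for Jun, by 1.80. Both calls were lost with the replicate block, and they held in 5 and 4 of 16 fits with 1 mouse left out.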

How the results depend on the processing

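Of 128 named genes tested, 104 were called, 79 of them with each mouse left out in turn and 76 in every fit. Calls lost numbered 9, 22, 6 and 11 without Juvenile-HFD replicates 1 to 4 and 18, 5, 12 and 13 without Adult-HFD replicates 1 to 4. DESeq2 lost 2, its size factors in edgeR 1, no filter on low counts 1, all 16 mice in 1 fit 7 and removal of mitochondrially encoded genes 1.

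With any 1 mouse left out, 622 to 1118 genes were called higher on HFD and 864 to 1610 lower, and 0 to 23 and 0 to 60 in the interaction. The study's thresholds gave 649 higher on HFD, and 391 and 803 in the interaction, where DESeq2 gave 54 and 39 and no filter on low counts 124 and 157. DESeq2 called 1231 higher and 1636 lower on HFD, its size factors in edgeR 1083 and 1441, no filter 1227 and 1805, all 16 mice in 1 fit 977 and 1399, and removal of mitochondrially encoded genes 1129 and 1446. DESeq2 and the fit with no filter each tested 27219 genes on HFD and 29688 in the interaction.

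List medians without 1 mouse ran from -0.25 to -0.0239 for developmental isoforms, -0.51 to -0.34 for imprinted genes, -0.14 to 0.0278 for myogenic regulators, -0.25 to 0.00601 for IGF signalling, -0.0333 to 0.0628 for glycogen and glycolysis, -0.0191 to 0.16 for fast fibre genes, -0.0213 to 0.0577 for the nuclear respiratory chain, -0.45 to 0.0683 for red cell genes, 0.0631 to 0.21 for the clock, -2.56 to -0.53 for adipocytes, -0.21 to -0.00250 for mural cells and -1.94 to 0.0545 for B and plasma cells. With DESeq2 the median was -0.78 for the cell cycle, -0.55 for B and plasma cells and 0.77 for keratinocytes, and with no filter it was -0.76, -0.49 and 1.17, and -0.0354 for developmental isoforms. Log2 fold changes of uncalled genes that changed sign without 1 mouse ran from -0.11 to 0.0665 for Pax7, -0.30 to 0.0349 for Myod1, -0.14 to 0.0207 for Myf5, -0.0191 to 0.16 for Myh4, -3.34 to 0.86 for Lep, -0.0305 to 0.12 for Per1, -0.11 to 0.0614 for Jun, -0.0671 to 0.0370 for Flt1, -0.45 to 0.0683 for Hbb-bs and -0.30 to 0.14 for Krt10. The cause was not tested.

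Mice with the same replicate number, once group means were taken off, correlated at 0.102, 0.314, -0.101 and 0.0287 for numbers 1 to 4. The correlation was not over 0.1 for every number, so the numbers were not taken as pairs, although the best partner had the same number for 3 of 4, a hint from the data and not from the design. With the replicate block, 984 genes were called higher on HFD, 914 of them also called without it, and 1490 lower, 1326 of them also called without it. The replicate block gave 0 calls in the interaction by edgeR, against 2 without it, lost 4 calls of named genes and put Lep at -0.91.

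Juvenile and adult groups hold 4 mice each, age at sampling and age at diet start move together, and bulk counts hold every cell of the dissected muscle. Genes at a few CPM rest on few reads. No scaling moved the median of all genes on HFD by more than 0.1. TMM and the size factors of DESeq2 both place most genes near 0, so a shift in RNA composition between the groups was not tested by this.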
